A study of Mus musculus with 10 samples.

Results

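Thymi that lacked both p53 and Mdm2 were compared with thymi that lacked p53 and kept Mdm2, to ask which transcripts follow Mdm2 when p53 cannot respond. The comparison rests on 5 of the 10 samples of the series, chosen by genotype in their titles: 2 labelled p53(-/-)mdm2(-/-), called mdm2-null here, and 3 labelled p53(-/-)mdm2(+/+), called mdm2 wild type. All 5 share the loss of p53, the C57BL6/129 hybrid background, an age of 4 to 5 weeks and a tissue labelled as normal thymus. The other 5 samples carry the mutant p53 allele numbered 246, with mdm2 null in 2 and mdm2 wild type in 3, and they helped to estimate the spread and served as a second, separate set. Neither the part of either gene that was removed nor the sex of the mice is stated in the labels, and no sample had wild-type p53. RNA was measured on whole-transcript arrays, and all values below are log2 signals or differences of log2 signals (mdm2-null minus mdm2 wild type), for 23332 features.

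Mdm2 is a RING-finger ubiquitin ligase that binds p53 and marks it for degradation, and with its relative Mdm4 it keeps p53 low in unstressed cells. Mice without Mdm2 die as embryos unless p53 is also absent, which is why Mdm2 loss in an animal is studied on a p53-null or p53-mutant background. The thymus is the organ in which T cells mature, and most of its cells are double positive thymocytes that rearrange their antigen receptor. In mice without p53 the thymus is a common site of lymphoma.

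The stretches just before the annotated starts of Alb, Agtrap and Mdm2, the named genes that passed the test, and of the heme synthesis gene Alas2, which was among the genes of smallest p, are shown so that the levels below can be read beside them. Each is the 100 bases upstream of the start, read 5′ to 3′ on the gene's strand from RefSeq, build GRCm38.p6. Alb lies at chr5:90460770-90460869 (plus strand), Agtrap at chr4:148088065-148088164 (minus strand), Mdm2 at chr10:117710759-117710858 (minus strand) and Alas2 at chrX:150547317-150547416 (plus strand). Capitals mark matches, on either strand, to 4 motifs: GTTAAT, a half-site of the liver factor HNF1, then TATAAA, the core promoter element, then AGATAA, recognised by factors of the erythroid lineage, and lastly CCACCC, recognised by Krueppel-like factors.
Alb: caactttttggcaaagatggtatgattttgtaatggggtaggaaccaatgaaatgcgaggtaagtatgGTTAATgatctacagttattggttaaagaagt
Agtrap: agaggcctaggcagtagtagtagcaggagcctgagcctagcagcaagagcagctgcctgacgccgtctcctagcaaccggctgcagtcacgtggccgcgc
Mdm2: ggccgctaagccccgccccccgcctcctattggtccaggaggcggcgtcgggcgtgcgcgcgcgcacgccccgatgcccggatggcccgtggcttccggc
Alas2: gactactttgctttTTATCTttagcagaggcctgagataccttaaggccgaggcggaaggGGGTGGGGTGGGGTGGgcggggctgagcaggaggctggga

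The Alb window held 1 HNF1 half-site, and the Alas2 window held 1 match to AGATAA and 3 overlapping matches to CCACCC, all on the opposite strand. Agtrap and Mdm2 held none of the 4 motifs in this window. Over the same window of 32851 RefSeq starts, GTTAAT occurred in 2.5%, TATAAA in 5.6%, AGATAA in 3.6% and CCACCC in 14.0%. A match describes letters only and does not show binding.

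Sample medians of the 5 p53-null thymi lay between 6.14 and 6.26, and correlations across features were 0.978 in the mdm2-null pair and 0.978 to 0.987 among mdm2 wild-type samples, against 0.970 to 0.981 between the groups. Thymocyte genes were bright in every one of them: Cd8a, a coreceptor chain, was 12.58 and 12.80 without Mdm2 and 12.74 to 12.80 with it. Psmb11, the proteasome subunit of cortical epithelium, was 8.46 and 8.44 against 8.27 to 8.58. The array names of both mdm2-null samples share one prefix and those of all 3 mdm2 wild-type samples another, and what the prefix stands for is not stated. It cannot be told apart from mdm2 genotype in any result below. Mdm2 wild-type replicate 1 stood apart in Y-linked genes: Eif2s3y was 9.72 and 10.18 in the mdm2-null thymi, and 3.46, 10.49 and 10.46 in mdm2 wild-type replicates 1, 2 and 3. Kdm5d, the other Y-linked gene measured, was 7.27 and 8.06, and 3.73, 8.20 and 8.03. The controls were thus not uniform in Y-linked signal, and the sex of the samples was not tested.

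Of all 23332 features, 5 passed limma at an adjusted p under 0.05 (0.0214%), 4 higher and 1 lower without Mdm2. They were Agtrap, Alb, Mdm2 itself, 1 feature annotated to both Hbb-b1 and Hbb-b2 (adult beta-globin) and 1 feature without a gene symbol (4391628). Among 14860 genes with a symbol of their own, 3 passed (0.0202%). At an unadjusted p under 0.05 there were 2506 features (10.7%), 1277 higher (5.47%) and 1229 lower (5.27%). The 2-group fit of these 5 samples alone called 0 features, with 2091 at an unadjusted p under 0.05.

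Mdm2 was 8.28 and 8.40 in mdm2-null thymi, and 9.49, 9.47 and 9.57 in mdm2 wild-type thymi. The groups were far apart relative to their spread, and Mdm2 fell by 1.17 (SE 0.10, adjusted p = 0.00876), a 2.25-fold difference. The signal without Mdm2 was nevertheless not dim: 77.1% and 77.5% of features lay below it in the mdm2-null samples, against 90.2% to 90.7% in mdm2 wild-type samples. The labels do not say which part of the gene was removed, so whether the feature lies within it was not tested. Without mdm2 wild-type replicate 2 the call on Mdm2 was lost (adjusted p = 0.065, limma).

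Agtrap encodes a protein that binds the type 1 angiotensin receptor and promotes its internalisation. Its signal was 8.50 and 8.44 in mdm2-null thymi, and 6.84, 6.81 and 6.86 in mdm2 wild-type thymi. Within each group the values were almost level, and the rise of 1.64 (SE 0.10, adjusted p = 0.00191, limma) corresponds to 3.11-fold. The unnamed feature had the same shape, with 6.72 and 6.93 in mdm2-null and 5.04, 4.89 and 5.08 in mdm2 wild-type thymi, a rise of 1.82 (SE 0.14, adjusted p = 0.00345, limma).

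Alb encodes serum albumin, made by hepatocytes. It reached 9.81 and 11.96 in the mdm2-null thymi and was 4.24, 4.11 and 4.13 in mdm2 wild-type thymi, where only 20.6% to 21.6% of features were dimmer. Both mdm2-null samples were far above every mdm2 wild-type sample but differed from each other by more than 2 log2 units. The rise was 6.72 (SE 0.52, adjusted p = 0.00345, limma), and as no detection calls came with the values it is given as a difference of signals.

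The beta-globin feature (Hbb-b1 and Hbb-b2, chains of red cell haemoglobin) was 11.94 and 11.42 in mdm2-null thymi, and 7.59, 7.42 and 8.68 in mdm2 wild-type thymi. It rose by 3.78 (SE 0.38, adjusted p = 0.0213, limma), 13.7-fold, without overlap. The call was lost when 1 of 3 samples was left out, with adjusted p (limma) of 0.0711 without mdm2-null replicate 2 and 0.115 or 0.0988 without mdm2 wild-type replicate 1 or 2.

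**Figure D1:**
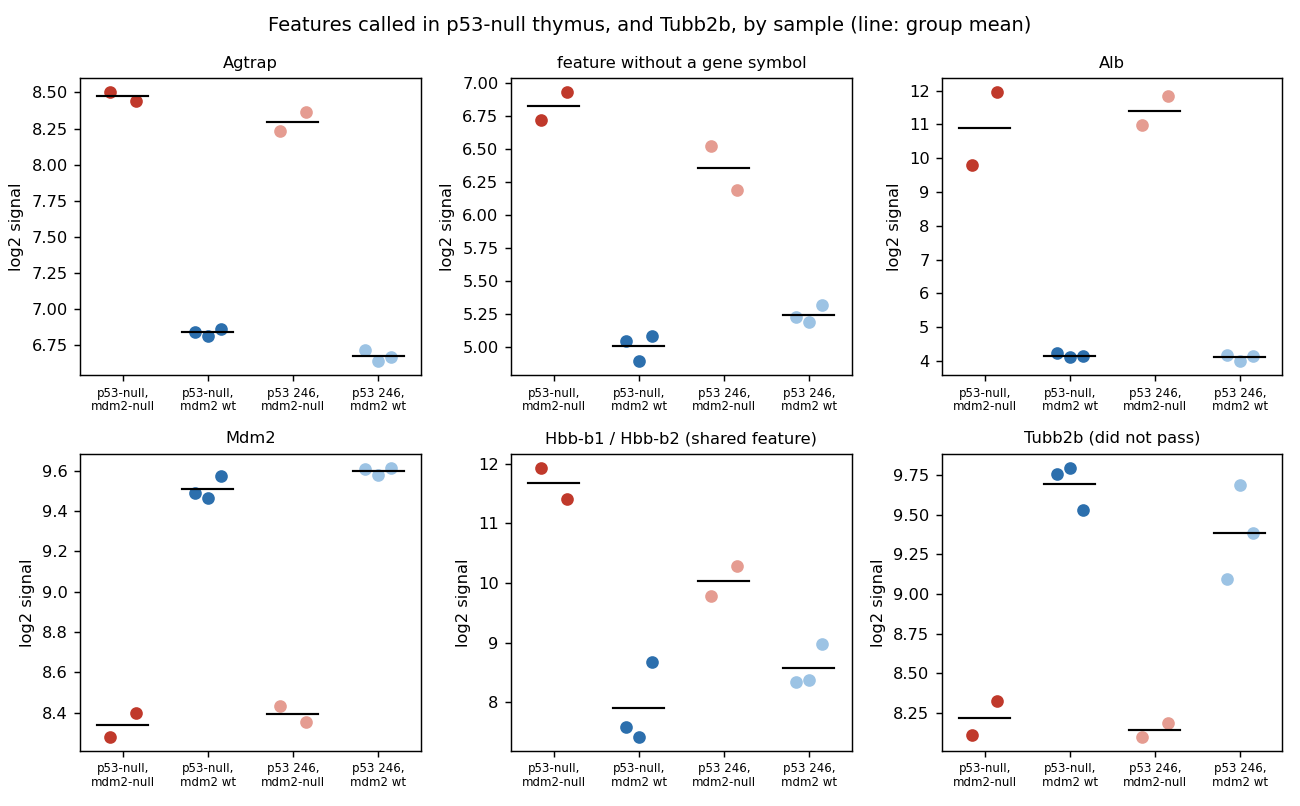
Log2 signal (vertical axes, each with its own range that does not start at 0) of the 5 called features and of Tubb2b in every sample (dots), by genotype, with group means as lines. In p53-null thymi (dark colours) Mdm2 lies at 8.28 and 8.40 without mdm2 and at 9.47 to 9.57 with it, and the p53 246 samples (pale colours) show the same order for each of the 6 features.

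Below the threshold stood a group of genes with tight values in both groups. Tubb2b, a beta-tubulin isotype, was 8.11 and 8.32 in mdm2-null thymi, and 9.76, 9.80 and 9.53 in mdm2 wild-type thymi (difference -1.47, SE 0.18, adjusted p = 0.0747, limma). Arsb, a lysosomal sulfatase that degrades glycosaminoglycans, was 7.15 and 7.21 against 5.90 to 6.16 (difference 1.16, adjusted p = 0.102). Ldlrad3, a membrane protein with a domain of the LDL receptor class, was 7.84 and 7.72 against 8.53, 8.55 and 8.54 (difference -0.76, adjusted p = 0.111). For none of these genes did the groups overlap. Aldh1a1, a retinaldehyde dehydrogenase of liver and other tissues, was 6.63 and 6.77 against 5.34, 4.74 and 5.10 (difference 1.64, adjusted p = 0.102). Its mdm2 wild-type values were less tight (SD 0.30, against 0.14 for Tubb2b), and it is also on the list of liver enzymes and transporters below. With only the brighter 50% of features tested, Tubb2b, Arsb and Ldlrad3 passed at adjusted p = 0.0343, 0.0469 and 0.0494 (limma).

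Zmynd8, a reader of histone modifications, was 10.46 and 10.50 in mdm2-null thymi, and 9.70, 9.26 and 9.50 in mdm2 wild-type thymi (difference 0.99, adjusted p = 0.149, limma). Spred2, an inhibitor of the Ras and ERK pathway, was 8.52 and 8.91 against 7.25, 7.43 and 7.83 (difference 1.21, adjusted p = 0.149). Rab27a, a small GTPase of lytic granule release, was 9.06 in both mdm2-null thymi and 8.18, 8.37 and 8.30 in mdm2 wild-type thymi (difference 0.77, adjusted p = 0.149). For Arsb, Zmynd8 and Spred2 the array held a second feature, which differed by -0.11, -0.06 and 0.40, so that the features of Arsb and Zmynd8 disagreed in sign.

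Genes with the largest differences downward were taken among those with an unadjusted p under 0.01 (limma) and no overlap. The 3 genes at least 2 log2 units lower did not meet both conditions. Of those taken, Rgs5, a pericyte marker that restrains G protein signalling, was 7.08 and 6.07 in mdm2-null thymi. It was 8.06, 7.92 and 8.34 in mdm2 wild-type thymi (difference -1.53, adjusted p = 0.195, limma). Scg5, a chaperone of secretory granules, differed by -1.37, Mill1, an MHC class I-like gene, by -1.32 and Epsti1, an interferon-induced gene, by -1.04. Zfp709 differed by -1.08, the dendritic cell lectin gene Cd209a by -0.97 and Rgs4 by -0.94. Their groups did not overlap, as the choice required, and adjusted p lay between 0.187 and 0.316. Il23r, a receptor chain for interleukin 23, was 5.03 and 4.02 in mdm2-null thymi, and 5.70, 5.72 and 5.36 in mdm2 wild-type thymi (difference -1.07, adjusted p = 0.266, limma). It differed by -0.57 without mdm2-null replicate 2 and by -1.57 without replicate 1, and Rgs5 by -1.02 and -2.03. A second feature of Zfp709 differed by 0.25, opposite in sign. A second feature of Rgs5 was 7.69 and 5.99 in mdm2-null thymi and 7.25 to 7.72 in mdm2 wild-type thymi, with overlap.

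Genes made by the liver filled most of the upper end of the comparison. Of 24 genes at least 2 log2 units higher without Mdm2, 16 were on the 2 liver lists, and 3 genes were as much lower. Of 26 measured genes for liver plasma proteins, all had a positive difference, 1 (Alb) was called, and 23 had an unadjusted p under 0.05 in the higher direction, where 4.99% of all genes did. In 22 of them the groups did not overlap (12.4% of all genes were higher without overlap). The median difference was 1.94, against -0.01 over all genes. Among 31 liver enzymes and transporters, 19 had an unadjusted p under 0.05 and a higher level, 20 did not overlap, 0 were called and the median was 0.98.

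The carriers of the plasma came next to Alb. Ahsg, which encodes fetuin-A, was 6.55 and 9.82 in mdm2-null thymi, and 3.93, 3.63 and 3.51 in mdm2 wild-type thymi (difference 4.50, adjusted p = 0.153, limma). Ttr, a carrier of thyroid hormone, was 7.23 and 9.93 against 4.99, 4.43 and 4.20 (difference 4.04, adjusted p = 0.169), and Hpx, which binds heme, was 6.32 and 9.84 against 4.58, 4.27 and 4.31 (difference 3.69, adjusted p = 0.212). For each, both mdm2-null samples were above all others, and replicate 2 was by far the higher.

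Apolipoproteins and enzymes had the same order of samples. Apoa2, a protein of high-density lipoprotein, was 6.78 and 9.85 in mdm2-null thymi, and 4.85, 4.91 and 5.26 in mdm2 wild-type thymi. Uox, which degrades uric acid, was 4.50 and 8.26 against 3.66, 3.24 and 3.38, and Tat, which breaks down tyrosine, was 4.82 and 7.90 against 3.84, 3.68 and 3.58. Fabp1, Rbp4 and Apoh, carriers of fatty acids, retinol and phospholipids, differed by 2.94, 2.91 and 2.78. None of the 6 passed (adjusted p 0.212 to 0.309, limma). Afp, the albumin-like protein of fetal liver, was 4.88 and 4.29 in mdm2-null thymi and 4.47 to 4.55 in mdm2 wild-type thymi, with overlap. Mup3, a urinary protein made by the liver, was 3.32 and 3.22 against 3.16 to 3.29.

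The mean of the liver plasma list was 5.55 and 7.65 in the mdm2-null samples and 4.29 to 4.53 in the mdm2 wild-type samples. Its part in the other differences was not tested. Where these transcripts came from was not tested either. In whole tissue, more cells of a type and more RNA per cell cannot be told apart.

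The mdm2-null thymi differed from each other in these genes. Relative to the mdm2 wild-type mean, the 57 liver genes had a median of 0.56 in replicate 1 and 2.33 in replicate 2, and 53 of them were higher in replicate 2, as were 50.5% of all genes. The opposite order held for fat: 22 genes of adipocytes and brown fat had medians of 1.02 and 0.21, and 3 of them were higher in replicate 2. It also held for red cell genes, where 20 members had medians of 0.55 and 0.08 and 5 were higher in replicate 2.

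Ucp1, which uncouples mitochondria in brown adipocytes, was 9.37 and 7.24 in mdm2-null thymi, and 6.61, 4.08 and 5.07 in mdm2 wild-type thymi (difference 3.05, adjusted p = 0.361, limma). Cidea, a lipid droplet protein of the same cells, was 7.27 and 5.95 against 4.89, 4.00 and 4.07 (difference 2.29, adjusted p = 0.337), and Pck1, an enzyme of gluconeogenesis and glyceroneogenesis in liver and fat, was 7.92 and 7.70 against 6.65, 5.64 and 5.60 (difference 1.85, adjusted p = 0.253). Adipoq, the adipocyte hormone adiponectin, overlapped, at 7.89 and 7.16 against 7.68, 6.25 and 4.78. Mdm2 wild-type replicate 1 was thus the highest control in fat genes, and its list mean of 6.16 exceeded the 6.14 of mdm2-null replicate 2. Of the 22 genes, 7 had an unadjusted p under 0.05 and a higher level (4.99% of all genes), 8 did not overlap upward (12.4% of all genes) and 0 were called, with a median of 0.58.

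Red cell genes did not share 1 order of samples. Alas2, the first enzyme of heme synthesis in erythroid cells, was 6.496 and 6.389 in mdm2-null thymi, and 4.73, 4.55 and 4.81 in mdm2 wild-type thymi (difference 1.75, SE 0.24, adjusted p = 0.102, limma), level in both replicates like the beta-globin feature. Slc4a1, the anion exchanger of the red cell membrane, was 7.08 and 4.48 against 4.42, 4.00 and 4.09, and Rhag, a blood group membrane protein, was 5.14 and 3.40 against 3.41, 3.30 and 3.20, so that replicate 1 alone stood out. Klf1 and Gata1, transcription factors of erythroid precursors, were dim and overlapped. Klf1 was 4.39 and 3.87 in mdm2-null thymi and 3.56 to 3.96 in mdm2 wild-type thymi (difference 0.42, adjusted p = 0.46), and Gata1 was 4.71 and 4.36 against 4.34 to 4.59. Tfrc, the transferrin receptor that dividing thymocytes also carry, went the other way, at 9.09 and 8.49 against 9.17 to 9.38 (difference -0.50, adjusted p = 0.387). In all 7 of 20 had an unadjusted p under 0.05 and a higher level (4.99% of all genes) and 1 a lower one (3.96%). None of the 20 was called, but the called beta-globin feature, annotated to both Hbb-b1 and Hbb-b2, is not among them.

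**Figure D2:**
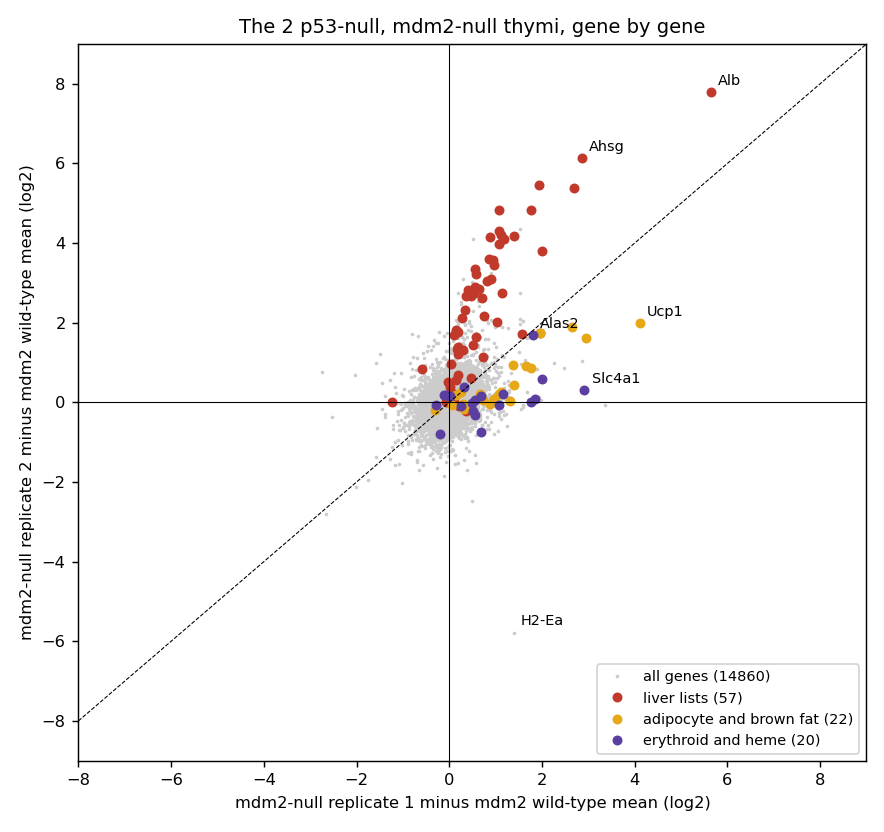
Each dot is a gene, with its log2 signal in p53-null, mdm2-null replicate 1 (horizontal) and replicate 2 (vertical), both minus the mean of the 3 mdm2 wild-type samples. Of 57 liver genes, 53 lie above the dashed line of equality (median 0.56 in replicate 1 and 2.33 in replicate 2), whereas 3 of 22 fat genes (medians 1.02 and 0.21) and 5 of 20 erythroid genes (0.55 and 0.08) do.

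Leaving out either mdm2-null thymus changed what was called, with the spread of the lone sample assumed to be that of the other groups. Without replicate 1, limma called 62 features, 55 higher and 7 lower, of which 17 were on the liver lists, including Ahsg (adjusted p = 0.000994), Hpx (0.0006) and Tat (0.00121). Without replicate 2 it called 10, 8 higher and 2 lower, with 2 of them on the erythroid list: Slc4a1 and Rhag (both adjusted p = 0.0078). Alb, Agtrap, Mdm2 and the unnamed feature were called in both.

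In Mdm2's own circuit Mdm2 was the only called gene. Of 17 measured partners, Mdm2 was called, and the median was -0.08. In this list 5 including Mdm2 were lower (3.96% of all genes) and 2 higher (4.99%) at an unadjusted p under 0.05. Mdm4, the relative that masks the p53 activation domain, was 9.43 and 9.54 in mdm2-null thymi, and 9.86, 9.83 and 9.81 in mdm2 wild-type thymi (difference -0.35, adjusted p = 0.397, limma). Foxo1, a transcription factor that Mdm2 can ubiquitinate, was 8.53 and 8.29 against 8.86, 8.74 and 8.79 (difference -0.39, adjusted p = 0.35). Rybp, a Polycomb-associated protein that binds Mdm2, was 9.49 and 9.66 against 8.97, 8.82 and 9.37 (difference 0.52, adjusted p = 0.368), though its second feature differed by -0.52. The deubiquitinase Usp7 differed by -0.09. The 10 measured genes close to Mdm2 on chromosome 10, at 1 to 21 protein-coding genes from it in the RefSeq order, differed by -0.17 (Best3) to 0.23 (Dyrk2), with 0 at an unadjusted p under 0.05. The closest of them, Slc35e3, differed by 0.12.

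With p53 absent in both groups, p53 target genes had no called member in either direction. Only 0.0202% of all genes were called, so a list of this size without a call says little about its members. Over all genes, 4.99% were higher and 3.96% lower at an unadjusted p under 0.05, the background for this and every later list. Among 21 genes of arrest and stress, 0 had an unadjusted p under 0.05 and a higher level and 2 a lower one, with a median of -0.12. These were Cdkn1a, the inhibitor p21 of cyclin-dependent kinases, at 6.03 and 5.38 in mdm2-null thymi and 6.19, 6.29 and 6.13 in mdm2 wild-type thymi (difference -0.50, adjusted p = 0.447, limma), and the antiproliferative gene Btg2, at 11.22 and 11.44 against 11.66, 11.50 and 11.73 (difference -0.30, adjusted p = 0.446). Zmat3, an RNA-binding protein downstream of p53, was 5.49 and 5.83 against 5.22 to 5.42 (difference 0.34). Among 12 apoptosis targets the median was 0.02. Pmaip1, which encodes Noxa, was 5.69 and 5.18 against 5.87, 6.09 and 6.04 (difference -0.57, adjusted p = 0.38), and Bbc3, which encodes Puma, was 5.20 and 5.87 against 5.15, 5.21 and 5.42, with overlap. Of 22 apoptosis regulators in general, Cflar, the inhibitor of caspase-8 activation, was 11.12 and 11.02 against 10.30, 10.57 and 10.70 (difference 0.54, adjusted p = 0.293), 3 were lower and 1 higher at an unadjusted p under 0.05, and the median was -0.02.

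Programmes that have been linked to Mdm2 apart from p53 were examined next. None had a called member, where 0.0202% of all genes were called. In 16 genes of serine synthesis and the amino acid stress response the median was 0.06. Of these, 2 were higher (4.99% of all genes) and 1 lower (3.96%) at an unadjusted p under 0.05. Shmt2, the mitochondrial serine hydroxymethyltransferase, was 8.58 and 8.69 in mdm2-null thymi, and 8.19, 8.13 and 8.37 in mdm2 wild-type thymi (difference 0.40, adjusted p = 0.357, limma). Asns, asparagine synthetase, was high in 1 sample only, at 7.26 and 6.28 against 6.14 to 6.24, and Atf3, a stress-induced factor, differed by -0.53.

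The 22 measured Hox genes, classical targets of Polycomb repression, had a median of 0.02 with 0 at an unadjusted p under 0.05 in either direction. Hoxa5, the member of smallest p, differed by 0.41 (adjusted p = 0.559, limma), without overlap. For 12 NF-kB response genes the median was -0.08, and Tnf was 6.78 and 5.72 against 7.52, 7.30 and 6.58 (difference -0.89, adjusted p = 0.44, limma), with overlap. Foxo target genes (13 measured) had a median of -0.10, and 14 Notch and Myc genes one of -0.02. Cad, the enzyme that starts pyrimidine synthesis, was 8.15 and 8.02 against 7.60 to 7.71 (difference 0.42, adjusted p = 0.309), and the receptor gene Notch3 was 7.65 and 7.84 against 7.28 to 7.43 (difference 0.38, adjusted p = 0.38).

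Fatty acid oxidation genes had a higher median than most lists, 0.22 over 13 measured. Of these, 3 were higher (4.99% of all genes) and 0 lower (3.96%) at an unadjusted p under 0.05. The thiolase gene Acaa2 was 9.72 and 10.00 in mdm2-null thymi, and 9.21, 9.32 and 9.14 in mdm2 wild-type thymi (difference 0.64, adjusted p = 0.309, limma). Cpt2, of the carnitine shuttle, differed by 0.57 and Acadvl, which oxidises very long chains, by 0.49, both without overlap. Liver and brown fat also express these enzymes. The liver and fat lists given above were higher without Mdm2 too, with opposite orders of the 2 mdm2-null samples. The part of either tissue was not tested. In 17 genes of sterol and fatty acid synthesis the median was 0.03, and the desaturase gene Scd1 varied most, at 11.24 and 9.97 against 10.37, 7.86 and 8.72.

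Thymocyte lists shifted little. Among 15 double positive thymocyte genes the median was -0.07. Of these, 2 were lower (3.96% of all genes) and 0 higher (4.99%) at an unadjusted p under 0.05. Those 2 were Ccr4, a chemokine receptor that was dim throughout, at 3.17 and 3.15 without Mdm2 and 3.79 to 3.94 with it (difference -0.71, adjusted p = 0.149, limma), and Rag2, a subunit of the recombinase. Rag2 was 8.29 and 9.13 against 9.25, 9.06 and 9.36, so that replicate 1 alone was low. Early thymocyte genes (18 measured) had a median of -0.04, and the adhesion receptor Cd44 was 6.58 and 5.64 against 6.65 to 7.17 (difference -0.76, adjusted p = 0.387).

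In 21 genes of TCR signalling and selection the median was -0.08. Ikzf2, which encodes Helios, was 9.38 and 8.90 in mdm2-null thymi, and 10.02, 9.78 and 9.41 in mdm2 wild-type thymi (difference -0.60, adjusted p = 0.403, limma), and Egr1, an early response factor, differed by 0.31. Mature single positive genes (16 measured) had a median of -0.08. Gimap6, a GTPase of lymphocyte survival, was 9.04 and 9.31 against 9.50 to 9.54 (difference -0.35, adjusted p = 0.332), and Il7r, the interleukin 7 receptor, was 9.20 and 8.28 against 9.05 to 9.20, low in replicate 2 alone.

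Genes of mitosis differed by small amounts. The mean of the list was 9.04 and 9.09 in mdm2-null thymi, and 9.10, 9.08 and 9.38 in mdm2 wild-type thymi, so that the groups overlapped and mdm2 wild-type replicate 3 stood highest. Of 30 G2 and M phase genes, 3 were lower (3.96% of all genes) and 0 higher at an unadjusted p under 0.05. Without overlap, 9 were lower (12.5% of all genes were). None was called and the median was -0.11. Cenpe, a kinetochore motor, was 7.67 and 7.38 in mdm2-null thymi, and 7.94, 7.97 and 8.39 in mdm2 wild-type thymi (difference -0.57, adjusted p = 0.351, limma). Kif11, the motor that pushes spindle poles apart, was 10.04 and 10.10 against 10.34 to 10.45 (difference -0.31), and Kif20a, a motor of the central spindle, differed by -0.39. Cdk1 and Ccnb2, the kinase and a cyclin of mitotic entry, differed by 0.25 and 0.10. In 26 G1/S and replication genes the median was -0.05, and the thymidine kinase gene Tk1 spread widely, at 8.64 and 8.99 against 7.46, 7.96 and 8.65.

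Among other cells of the thymus, macrophage genes had the lowest median of the 36 lists, -0.25 over 21 measured. Of these 4 had an unadjusted p under 0.05 and a lower level (3.96% of all genes) and 1 a higher one, 7 were lower without overlap (12.5% of all genes), and none was called. In p53 246 thymi the median of the list was 0.09. The complement genes C1qb and C1qc, made by resident macrophages, were 9.89 and 9.74, and 9.19 and 9.15, in mdm2-null thymi, against 10.20 to 10.45 and 9.43 to 9.73 in mdm2 wild-type thymi (differences -0.50 and -0.41, adjusted p = 0.36 and 0.406, limma). Msr1, a scavenger receptor, differed by -0.62 at a dim level. Hmox1, which degrades heme, went the other way, at 6.79 and 6.91 against 6.25 to 6.57 (difference 0.40, adjusted p = 0.428). Mdm2 wild-type replicate 2 had the highest macrophage mean, 7.98, against 7.44 and 7.70 in mdm2-null samples and 7.68 and 7.72 in the other controls.

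Dendritic cell genes (14 measured) had a median of -0.15, and the chemokine gene Ccl22 was 6.57 and 6.89 in mdm2-null thymi, and 7.23 to 7.46 in mdm2 wild-type thymi (difference -0.63, adjusted p = 0.32, limma). B cell genes had a median of -0.12, and granulocyte and mast cell genes one of 0.15 with 0 members at an unadjusted p under 0.05. Thymic epithelium had a median of -0.06 over 20 genes. Its claudin gene Cldn4 was 8.29 and 8.31 against 8.65 to 8.86 (difference -0.43, adjusted p = 0.38).

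Vessel and pericyte genes had a median of -0.03 over 19. Of these, 3 were lower (3.96% of all genes) and 2 higher (4.99%) at an unadjusted p under 0.05. The 3 lower were Rgs5, Rgs4 and Angpt1, which encodes the Tie2 ligand angiopoietin-1 and was 5.69 and 5.33 in mdm2-null thymi, and 6.34, 5.83 and 6.48 in mdm2 wild-type thymi (difference -0.71, adjusted p = 0.336, limma). The 2 higher were the receptor genes Notch3 and Tie1. The fibroblast list (14 genes, median -0.10) had Postn alone at an unadjusted p under 0.05, and skeletal muscle genes had a median of 0.03 with none. Medians were -0.13 in interferon-induced genes, -0.01 in the glucocorticoid response, 0.02 in heat shock and immediate early genes, and 0.01 in the unfolded protein response. The list of neighbouring glands and other organs had a median of -0.06, and Pth, the parathyroid hormone, was 6.11 and 4.97 against 4.24 to 5.34.

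**Figure D3:**
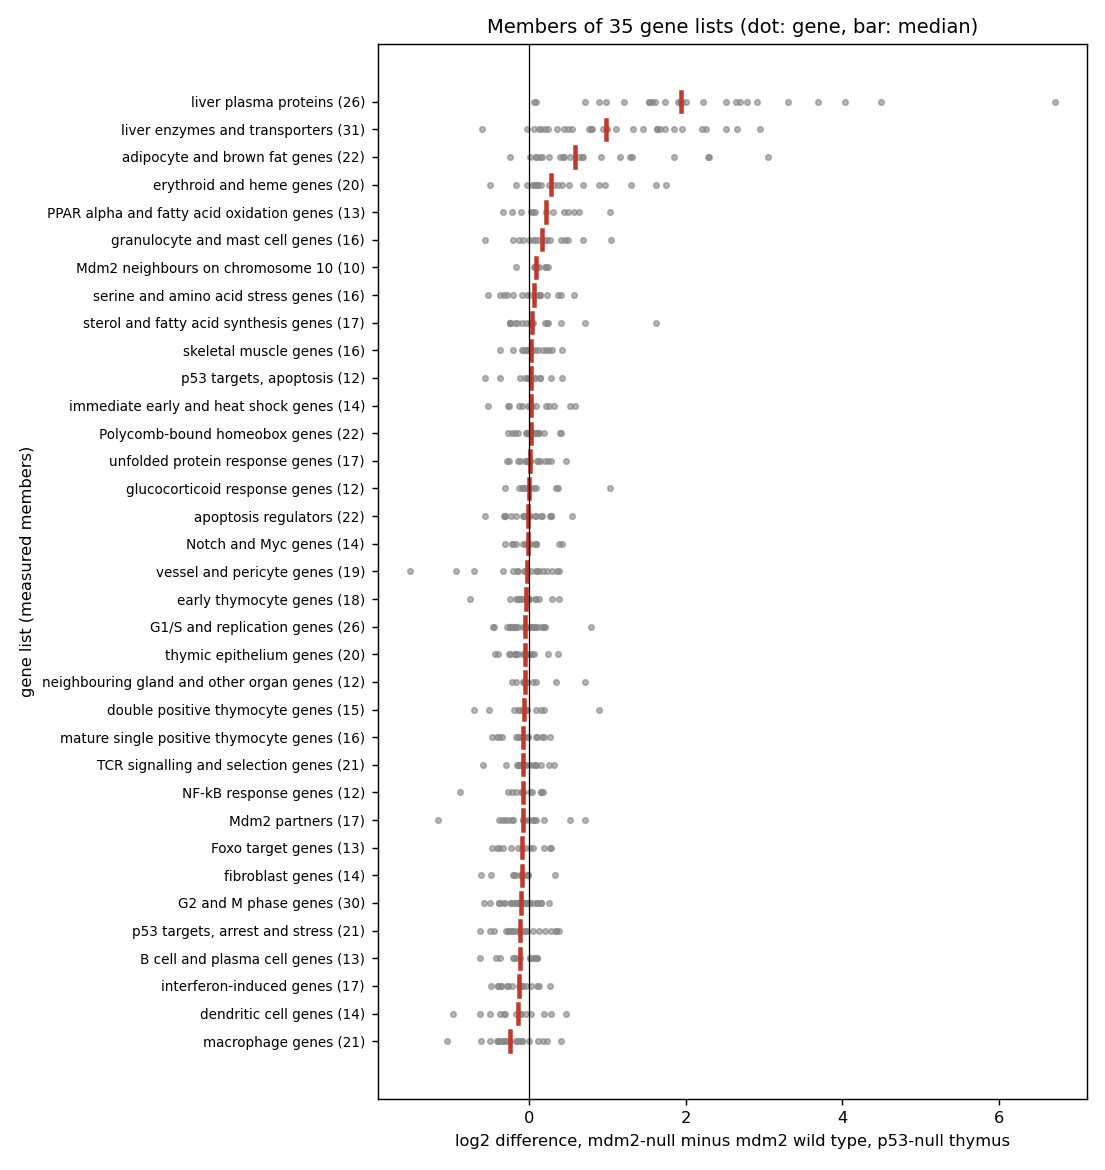
Log2 difference, mdm2-null minus mdm2 wild type in p53-null thymus, for every measured member (dots) of 35 gene lists, with the list median as a red bar and the number of members in brackets. The liver plasma list stands at a median of 1.94 and the liver enzyme list at 0.98, fat and erythroid genes at 0.58 and 0.28, and the remaining medians lie between -0.25 and 0.22.

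The samples with the p53 246 allele allow the same comparison in 5 other thymi, which share no sample with the first 5. Both comparisons use the same estimate of spread from all 10 samples, so their p-values are not independent. Of the 5 called features, all differed in the same direction without overlap in p53 246 thymi, where 3 of all features were called (0.0129%). Agtrap was 8.23 and 8.37 without Mdm2 and 6.63 to 6.72 with it (difference 1.63, adjusted p = 0.00203, limma), Alb was 10.97 and 11.84 against 3.99 to 4.17 (7.30, adjusted p = 0.00257), and Mdm2 was 8.43 and 8.35 against 9.58 to 9.62 (-1.21, adjusted p = 0.00907). The unnamed feature differed by 1.11 (adjusted p = 0.0509) and the beta-globin feature by 1.46 (adjusted p = 0.134).

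Over all genes, 64.4% had the same sign in both sets, with a correlation of 0.622 across 14860 genes, which are not independent and share an array platform. All 24 genes at least 2 log2 units higher in p53-null thymi without Mdm2 were also higher in p53 246 thymi without Mdm2, 23 of them without overlap (18.9% of all genes were higher there without overlap). Of 3 genes at least 2 log2 units lower, 1 had the same sign and 0 were lower without overlap. Of 22 at least 1 lower, 16 had the same sign and 8 were lower without overlap. The share of all genes lower there without overlap is not given here, so these counts cannot be set against it. Tubb2b was 8.10 and 8.19 against 9.09 to 9.68, Arsb differed by 1.34, Ldlrad3 by -0.83, Zmynd8 by 1.05 and Spred2 by 1.10. Rgs5, Scg5, Epsti1, Rgs4, Zfp709 and Il23r were lower there too, with differences of -1.30 to -0.52. Mill1 differed by -0.10, with overlap. Cd209a went the other way, at 6.17 and 5.73 against 5.39 to 5.52 (difference 0.48). Liver lists had medians of 2.23 and 1.02 there and the fat list 0.93, whereas erythroid genes had a median of -0.001.

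The difference of the Mdm2 effect between the p53 genotypes was tested as an interaction, and limma called 0 features, with 997 at an unadjusted p under 0.05 (4.27%). The smallest interaction p among genes belonged to Alas2, at 5.29 and 5.40 without Mdm2 and 5.01 to 5.90 with it in p53 246 thymi (interaction 1.77, SE 0.33, adjusted p = 0.995). Rab27a was 8.88 and 8.68 against 8.75 to 8.96 there (interaction 0.86, SE 0.17, adjusted p = 0.995), so that its p53-null, mdm2 wild-type samples were the ones below all other samples. An interaction that misses the threshold in groups of 2 and 3 does not show that the effects were alike.

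**Figure D4:**
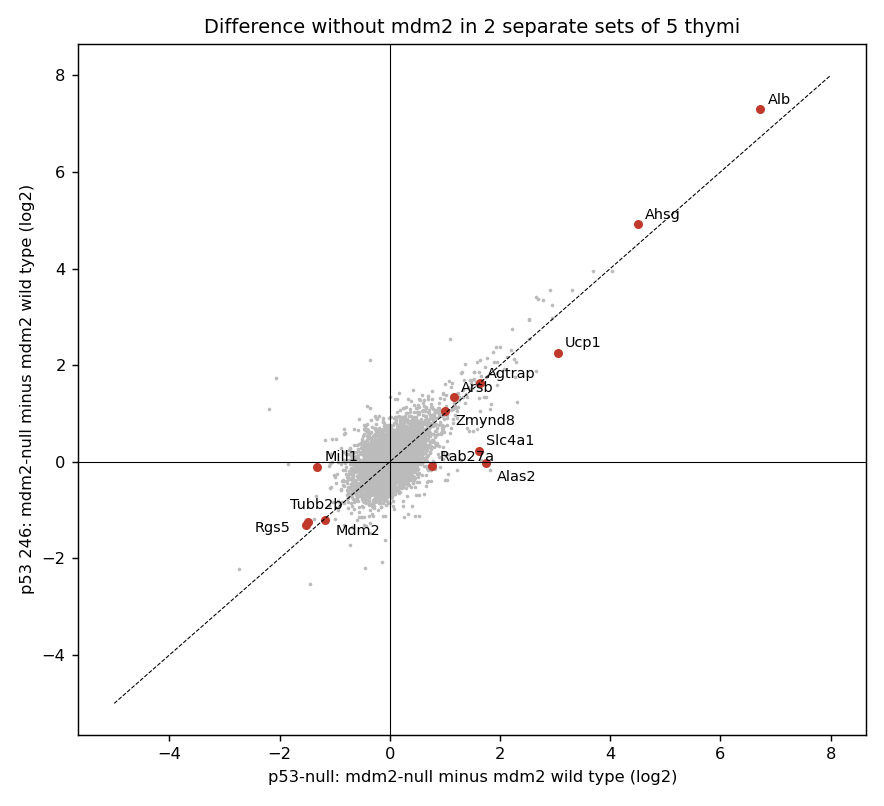
Each dot is a gene, with its log2 difference, mdm2-null minus mdm2 wild type, in p53-null thymi (horizontal) and in p53 246 thymi (vertical), and the dashed line marks equality. Alb (6.72 and 7.30), Agtrap (1.64 and 1.63) and Mdm2 (-1.17 and -1.21) lie near the line, and Alas2 (1.75 and -0.02) lies off it.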

How the data were processed

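Per the labels' protocols, total RNA of frozen thymus was purified, depleted of ribosomal RNA, amplified, labelled with biotin and hybridised to Affymetrix whole-transcript arrays, 1 per sample. The authors deposited log2 signals for 23332 features per sample. Partek 6.5 and genome build mm8 are named in the submitters' processing notes, and the normalization and probe summary are not given in the sources used here. Values were used as deposited, and 0 columns were left out. Platform annotation gave 1 gene symbol to 14996 features (14860 genes), several to 1019 and none to 7317. A gene with several features was represented by that of highest mean.

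All features were fitted with limma 3.58.1 in R 4.3.3 (lmFit, eBayes, two-sided), with 1 mean per group over all 10 samples, 6 residual and 2.85 prior degrees of freedom and Benjamini-Hochberg adjustment over all features. A feature with an adjusted p under 0.05 is called. The procedure was tested on simulated data. The labels do not say whether replicates were separate animals, so the p-values measure only the spread between these samples, and the number of arrays limits the precision. The 36 gene lists named 725 symbols, of which 584 were measured, and some genes stand in more than 1 list. Comparisons, lists and members were chosen with earlier results of these data known. Genes named are Mdm2, Cdkn1a, called genes, the 12 of smallest p, the 10 largest differences each way among genes with p under 0.01 and groups that did not overlap, and the 4 list members of smallest p. Any other gene named with values was chosen after its values were seen. Alternatives were another sample set, moderation, weights, scaling, filters on dim features, a replicate block and leaving out each of the 5 samples.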

Additional observations from a re-analysis of the deposited data

How the results depend on the processing

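The count of called features was 5, and 3 to 7 in the fits with a plain linear model (4), a trend in the moderation (6), sample weights (5), median centring (5), quantile scaling (5), the dimmer 25% of features left out (5), the replicate block (4) and any 1 mdm2 wild-type sample left out. It was 0 with the 2 groups alone and 13 (4 higher, 9 lower) with the dimmer 50% of features left out, where fewer features were tested. Leaving out 1 sample gave counts of 3 to 62, with 62 and 10 without mdm2-null replicate 1 and 2, and 3 without mdm2 wild-type replicate 2. The interaction had 0 calls in every fit to all samples, and 0 to 2 when 1 sample was left out. Replicate numbers could not be shown to pair samples (correlations of deviations 0.081 and -0.088 for numbers 1 and 2), and with the replicate block Mdm2 differed by -1.15 (adjusted p = 0.139, limma) while the other 4 calls held. With 2 groups alone Agtrap and Alb both had an adjusted p of 0.0853 (limma), and Alb had 0.116 in the plain model. With 1 sample left out Bbc3 differed by -0.065 (without mdm2-null replicate 2) to 0.605, Il7r by -0.873 to 0.047 (without mdm2-null replicate 2) and Eif2s3y by -0.526 (without mdm2 wild-type replicate 1) to 2.993, so that each changed sign. The cause of these changes was not tested. Depth is unknown for arrays, and signals near 3 to 4 carry no detection call.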

Other observations

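Some genes differed by more between samples of the same group than between the group means, and were chosen after their values were seen. H2-Ea, an MHC class II gene that carries a deletion in H-2b strains such as C57BL/6, was 10.68 and 3.50 in the mdm2-null thymi, and 11.77, 11.56 and 4.53 in mdm2 wild-type replicates 1, 2 and 3. Rab6b, a small GTPase, was 7.11 and 3.70 in mdm2-null thymi and 3.65 to 3.86 in mdm2 wild-type thymi. Ctse, the protease cathepsin E, was 7.02 and 10.60 against 6.02 to 7.03, and Ddit4, a stress-induced inhibitor of mTOR, was 7.43 and 10.13 against 8.52 to 9.54. In all, 42 genes were at least 2 log2 units higher in mdm2-null replicate 2 than in replicate 1, 25 of them on the liver lists, and 7 were as much higher in replicate 1. Over the 3 mdm2 wild-type samples 34 genes spanned at least 2 log2 units.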
